A study of Mus musculus with 14 samples.

Results

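The measurement described here is a difference of differences: how far the 6h change of each gene in follicular B cells lacking both RelB and c-Rel departed from the 6h change of the same gene in wild-type cells. All cells were follicular B cells of C57BL/6 mice, isolated from spleen with a magnetic kit for marginal zone and follicular B cells, and cultured in medium with 50 ng per ml of BAFF. The double knockout carries relb-/-crel-/- (dbko), the single knockout carries crel-/- (cko), and the wild type (wt) carries neither. The 8 libraries of wt and dbko at 0h and 6h, 2 per group, enter the difference, out of 14 in the series, and cko at 0h and 6h (4 libraries) serves as the nearest other genotype. Per gene, the response of a genotype is its log2 level at 6h minus that at 0h, and the response difference is the dbko response minus the wt response. Of 39179 gene IDs, 12630 had enough counts to be tested. No culture without BAFF was used here, so the cytokine and the time in culture cannot be told apart. The labels do not say whether the knockouts are confined to B cells, whether animals were pooled, or how the 2 libraries of each group relate to animals or cultures.

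BAFF is a TNF family cytokine on which mature B cells depend for survival. Its receptor on these cells signals to NF-kB, a family of transcription factors that work as dimers of RelA, RelB, c-Rel, p50 and p52. The non-canonical arm, in which p100, the product of Nfkb2, is processed to p52, acts mainly through RelB, and the canonical arm acts through RelA and c-Rel. Known targets of these factors in B cells include survival genes such as Bcl2l1, genes of their own feedback, and genes of growth and of contact with T cells.

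The targeted genes were read first. Levels are given as CPM, counts per 1000000 after scaling, with the 0h pair of libraries first, the 6h pair second, and replicate 1 before replicate 2 in each pair. Rel, which encodes c-Rel, measured 633 and 621 CPM, then 672 and 683 CPM in wt, and 40.0 and 52.3 CPM, then 53.9 and 61.4 CPM in dbko. Relb measured 115 and 117 CPM, then 150 and 164 CPM in wt, and 53.0 and 65.6 CPM, then 67.8 and 88.4 CPM in dbko. Both were lower in dbko at both times, and Relb transcript remained present in the libraries labelled dbko. Neither gene passed the test of the response difference, which was 0.21 ± 0.19 for Rel (log2 ± SE, adjusted p = 0.505) and -0.04 ± 0.20 for Relb (adjusted p = 0.925).

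The libraries stood apart in 3 ways that bear on the results. Gene counts summed to between 10548983 and 11859709 in the 8 libraries. The replicates of wt were close to each other and those of dbko were not: the mean chi-square per gene between replicates was 3.0 in wt at 0h and 4.66 at 6h, against 30.87 in dbko at 0h and 36.21 at 6h. On the second principal component, with 20.1% of the variance, dbko replicate 1 lay at 40.9 and 38.1 and replicate 2 at 10.6 and 6.5, with wt between -22.2 and -10.5. The labelled cell type was checked against its markers. Mature B cell genes summed to 31557 to 42881 CPM before culture and 19802 to 25886 CPM after it. The T cell receptor complex genes Cd3d, Cd3e and Cd3g were at or below 0.391 CPM in each of the 8 libraries. Some other T and NK cell markers were higher, and the full list of these markers summed to between 65.2 and 128 CPM. Lck ranged from 34.7 to 67.9 CPM. The highest single values were 31.4 CPM for Il7r (dbko 6h), 21.3 CPM for Cd28 (dbko 6h), 20.6 CPM for Cd8a (dbko 0h) and 15.4 CPM for Prf1 (wt 0h). The low Cd3 levels therefore do not stand for the whole list.

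Markers of erythroid cells were far higher in dbko, most of all at 0h. Their sum was 205 and 195 CPM, then 181 and 180 CPM in wt, and 2417 and 1267 CPM, then 483 and 297 CPM in dbko. Of 22 tested, 20 were higher in dbko at 0h, where 7.10% of all genes were higher and 4.55% lower, and 3 were called in the response difference, all lower (1 higher and 5 lower with a replicate block). Epor and Gata1, which define this lineage, were at 0 in both wt libraries of 6h. Macrophage and monocyte markers summed to 412 and 419 CPM, then 309 and 300 CPM in wt, and 502 and 370 CPM, then 668 and 386 CPM in dbko, with replicate 1 the higher of the dbko pair each time. Apoe alone gave 119 and 124 CPM, then 170 and 171 CPM of this sum in wt, and 9.86 and 7.76 CPM, then 13.7 and 18.3 CPM in dbko. Of 17 tested, 3 were higher and 1 lower in dbko at 0h. At 6h 16 were higher and 1 lower, where 15.2% of all genes were higher and 11.5% lower. In bulk samples, fewer cells of a type and less of its RNA per cell cannot be told apart.

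**Figure D1:**
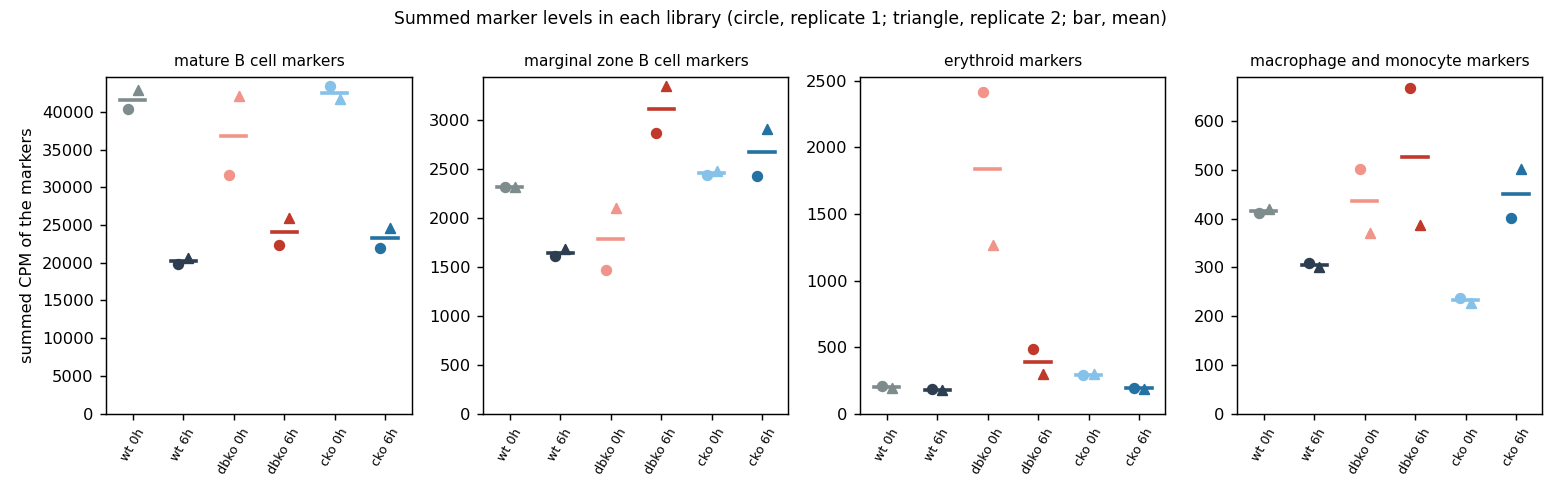
Summed CPM of 4 sets of cell type markers in each library of wt, dbko and cko at 0h and 6h; circles are replicate 1, triangles replicate 2 and bars the mean of the 2. Erythroid markers are highest in dbko at 0h, at 2417 and 1267 CPM, and marginal zone markers are at 2872 and 3346 CPM in dbko at 6h, against 2429 and 2913 CPM in cko, with Plac8 the largest part of both.

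The response to 6h of culture differed between the genotypes for 1749 of 12630 genes, 13.8% of those tested, at an adjusted p under 0.05. The response was higher in dbko for 872 genes (6.90%) and lower for 877 (6.94%), and for 843 the difference was at least 2-fold, 416 higher and 427 lower. The median over all genes tested was 0.047 on the log2 scale. At an unadjusted p under 0.05 there were 3673. Fitting only the 8 libraries of the 4 groups compared gave 650 genes at an adjusted p under 0.05, 275 higher and 375 lower. Each count rests on 2 libraries per group: 453 genes (3.59%), 194 higher and 259 lower, were called in the full fit and in all 10 fits that left out 1 of the 8 libraries or 1 dbko replicate at both times. Leaving out replicate 1 or 2 of wt 0h gave 595 and 613 called genes, replicate 1 or 2 of wt 6h gave 741 and 596, and replicate 2 of dbko 6h gave 2634. Each left-out fit leaves 1 library in at least 1 group, so the spread of that group is taken from the other groups. The dbko replicates lay further apart than those of wt. Holding in the left-out fits is therefore not a measure of the spread within dbko. With a replicate block within each genotype 2685 genes were called, 1384 higher and 1301 lower, and 1743 of the 1749 were among them. Where this block moved a count given below by more than 1.5 times, its value is given as the blocked count. Genes named below as called were called in all 10 of these fits unless the text says otherwise, and log2 values that moved by more than 1.5 times in any of them are given with that range.

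In wt alone 46.2% of genes were called between 0h and 6h, and in dbko 39.6% (19.3% higher and 20.3% lower at 6h). The commonest form of a lower response was a rise called in wt with no call in dbko. Of the 877 genes, 387 rose in wt and were not called in dbko, 246 fell in dbko and were not called in wt, and 105 rose in wt and fell in dbko. A further 65 rose and 61 fell in both, and 13 were called in neither. The 872 genes with a higher response were close to the mirror of this: 368 fell in wt and were not called in dbko, 250 rose in dbko and were not called in wt, 52 fell in wt and rose in dbko, 131 fell and 54 rose in both, and 17 were called in neither.

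Splitting the 1749 genes by where the genotypes differed put most of them at 6h. In 1074 genes (61.4%) dbko and wt were called different at 6h and not at 0h, 555 higher (4.39% of genes tested) and 519 lower (4.11%). In 313 genes (17.9%) they were called different at 0h and not at 6h, 151 higher (1.20%) and 162 lower (1.28%). In 177 (10.1%) they were called at both times, 67 higher (0.530%) and 110 lower (0.871%). The blocked counts were 536 at 0h only and 509 at both times. The remaining 185 (10.6%) were called at neither time, 99 higher (0.784%) and 86 lower (0.681%), and none of these held in all 10 left-out fits. Their median differences were -0.42 at 0h and 0.36 at 6h among the 99, and 0.40 and -0.34 among the 86. A missing call at 0h is not equality: of the 1074, 963 had a 0h difference under 0.5 on the log2 scale and 910 had a 0h difference whose 95% interval lay within ±1. The median 0h difference was -0.20 among the 555 with a higher response and 0.19 among the 519 with a lower one, on the side opposite to the response difference. The 0h difference is subtracted in the response difference, so in every class genes chosen by a called response difference lean to that side. The sign of the 0h difference in a class is therefore not a separate result.

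**Figure D2:**
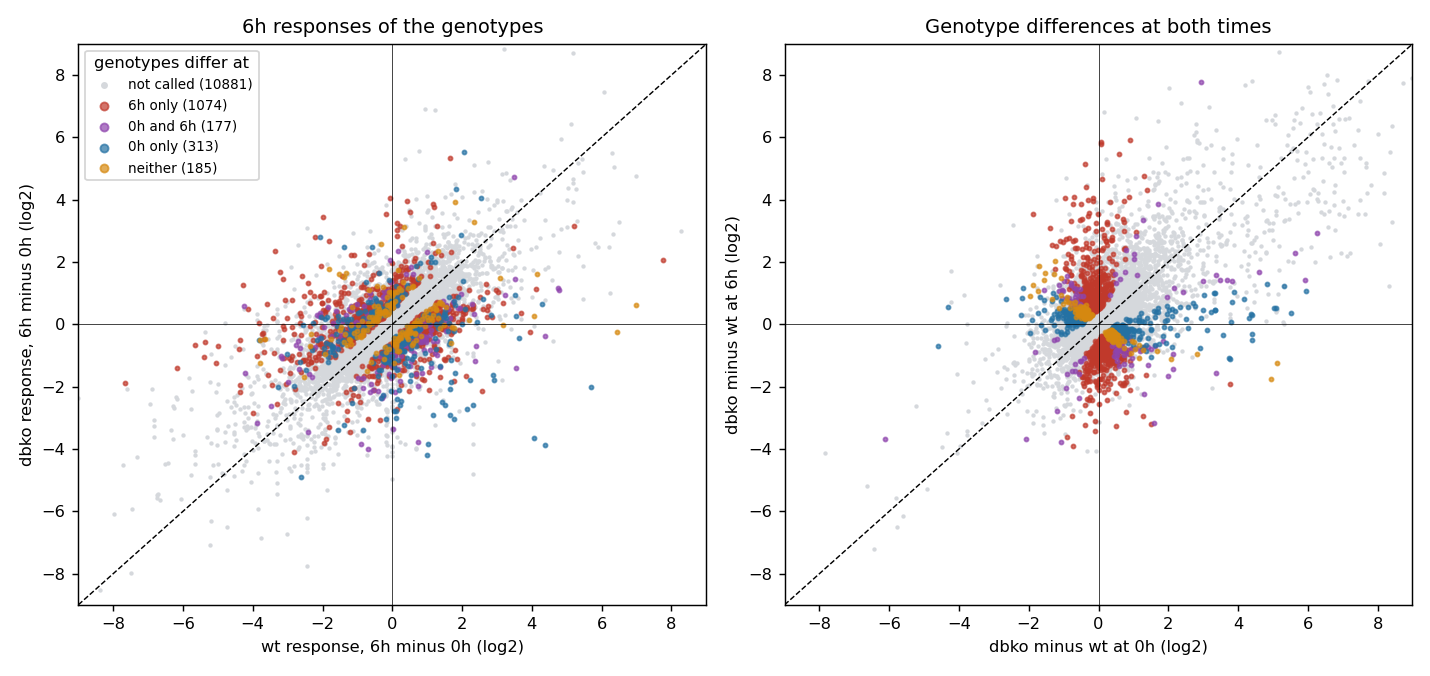
Each point is a gene tested. Left, the dbko response against the wt response, 6h minus 0h on the log2 scale; right, dbko minus wt at 6h against the same at 0h. Colours give the class of the 1749 called genes, grey the other 10881, and the dashed line equality; 1 gene in the left panel and 11 in the right lie beyond ±9 and are not drawn. The 1074 genes called at 6h only line the vertical axis of the right panel, and the 313 called at 0h only line its horizontal axis.

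Genes that differed at 6h only and responded less in dbko included chemokine, survival and immune surface genes. Bcl2l1 (chr2:152780668-152831728, GRCm38, minus strand) encodes Bcl-xL, a protein that blocks mitochondrial cell death. It went from 10.5 and 9.68 CPM to 62.8 and 72.4 CPM in wt, and from 8.55 and 8.14 CPM to 14.2 and 10.9 CPM in dbko. The genotypes overlapped at neither time, with a narrow gap before culture and a wide one after it. Its response difference was -2.15 ± 0.25 (adjusted p = 0.000462), made of a rise of 2.74 in wt and 0.59 in dbko, beside a 0h difference of -0.27 that was not called (adjusted p = 0.357). Ccl4 (chr11:83662584-83664683, plus strand), an inflammatory chemokine, rose from 29.9 and 27.2 CPM to 323 and 420 CPM in wt, while dbko went from 23.2 and 30.1 CPM to 18.4 and 50.5 CPM (response difference -3.33 ± 0.54, adjusted p = 0.00479). Ccl3, its neighbour on chromosome 11, showed the same order, with 11.8 and 11.6 CPM followed by 170 and 238 CPM in wt, and 10.1 and 11.8 CPM followed by 13.1 and 34.5 CPM in dbko (-3.00 ± 0.55, adjusted p = 0.00816). Vsir, the checkpoint receptor VISTA, moved in opposite directions: 52.2 and 58.5 CPM became 150 and 168 CPM in wt, and 64.0 and 67.7 CPM became 22.6 and 37.2 CPM in dbko (-2.66 ± 0.32, adjusted p = 0.000716). Mir155hg, the host transcript of miR-155, went from 5.42 and 6.20 CPM to 50.6 and 54.4 CPM in wt and from 9.39 and 8.33 CPM to 11.5 and 17.0 CPM in dbko (-2.49 ± 0.33, adjusted p = 0.000863).

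Genes that differed at both times and responded less in dbko mostly began higher there: 97 of the 110 had a 0h difference above 0. Choosing genes by the response difference favours this sign, as said above. Zbtb46 (chr2:181387762-181459426, minus strand), a transcription factor best known from dendritic cells, had the largest difference of the named genes of this class. It rose from 2.50 and 2.42 CPM to 51.6 and 50.7 CPM in wt, against 9.02 and 5.75 CPM and then 3.96 and 7.35 CPM in dbko. At 0h both dbko libraries lay above both wt libraries and at 6h both lay below, with a response difference of -4.75 ± 0.39 (adjusted p = 0.000167). Of the 8 dendritic cell markers tested, Zbtb46 included, 5 were higher in dbko at 0h. Among them Clec9a measured 1.98 and 1.55 CPM, then 0 and 0.0849 CPM in wt, and 13.7 and 11.6 CPM, then 4.77 and 1.95 CPM in dbko. Xcr1 measured 1.67 and 1.74 CPM, then 0.0915 and 0 CPM in wt, and 12.6 and 14.8 CPM, then 2.18 and 1.64 CPM in dbko. The summed level of this list was 62.4 and 61.3 CPM, then 84.8 and 85.2 CPM in wt, and 129 and 118 CPM, then 54.4 and 46.2 CPM in dbko. Zbtb46 is itself in this sum and made up most of it in wt at 6h, at 51.6 and 50.7 CPM. The sum is thus not a separate measure beside Zbtb46. The part of the other dendritic cell markers in the difference of Zbtb46 was not tested. Tfrc, the transferrin receptor through which cells take up iron, went from 187 and 194 CPM to 419 and 469 CPM in wt and from 571 and 449 CPM to 288 and 252 CPM in dbko (-2.14 ± 0.18, adjusted p = 0.000167), crossing between the times. Tnf, the cytokine TNF, showed the same crossing at lower levels, with 17.1 and 17.6 CPM and then 27.2 and 28.7 CPM in wt, and 57.5 and 40.9 CPM and then 15.9 and 16.6 CPM in dbko (-2.28 ± 0.25, adjusted p = 0.000371). Il1r2, a decoy receptor for interleukin-1, had a response difference of -3.09 ± 0.30 (adjusted p = 0.000257) with a 0h difference of 2.14. Il2ra, which encodes CD25 of the interleukin-2 receptor, rose from 5.00 and 4.74 CPM to 131 and 136 CPM in wt, and lay at 31.6 and 7.28 CPM and then 44.1 and 39.6 CPM in dbko. Its difference of -3.67 ± 0.68 (adjusted p = 0.00889) ranged from -4.36 to -2.27 with libraries left out and missed the threshold without wt 0h replicate 2 (adjusted p = 0.0512). Tagap1, a GTPase-activating protein, had a difference of -2.38 ± 0.20 (adjusted p = 0.000167), from 14.1 and 14.9 CPM, then 24.9 and 26.9 CPM in wt and 49.2 and 55.9 CPM, then 19.2 and 16.8 CPM in dbko. Cdk5r1, the p35 activator of the kinase Cdk5, was instead lower in dbko at both times, with 60.3 and 60.2 CPM, then 86.9 and 112 CPM in wt and 22.0 and 35.7 CPM, then 4.29 and 10.2 CPM in dbko (-2.71 ± 0.43, adjusted p = 0.00355). Tfrc is also abundant in erythroid precursors, whose markers were raised in dbko at 0h, and the part of those markers in its 0h difference was not tested.

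Promoter sequence was examined because RelB and c-Rel bind DNA at kB sites. The windows, from 250 bases before to 50 after a RefSeq transcription start, were scanned for the 10-base kB consensus, which reads as itself on the other strand. It occurred in 11.2% of all 32851 windows and in 13.2% of those of tested genes. Among genes with a lower response it occurred in 14.7% of windows of the 6h only class and in 23.2% (23 of 99) of the class that differed at both times. For genes with a higher response the shares were 13.3% and 7.69%. The AP-1 motif TGANTCA, searched on both strands, was in 7.81% of all windows and 4.98% of those of tested genes. These are matches to letters and not measured binding. The windows of 2 genes are shown for each of the 2 classes with a lower response, in rank order of their response difference. The windows of Vsir and Il1r2, next in rank in these classes, hold no match to the kB consensus and are not printed. Ccl4, at the top of the 6h only class, had no entry. Sequences are from RefSeq on GRCm38.p6, 5′ to 3′ along the gene, with letters matching the kB consensus in capitals.
Ccl3 (chr11:83649329-83649628, minus strand): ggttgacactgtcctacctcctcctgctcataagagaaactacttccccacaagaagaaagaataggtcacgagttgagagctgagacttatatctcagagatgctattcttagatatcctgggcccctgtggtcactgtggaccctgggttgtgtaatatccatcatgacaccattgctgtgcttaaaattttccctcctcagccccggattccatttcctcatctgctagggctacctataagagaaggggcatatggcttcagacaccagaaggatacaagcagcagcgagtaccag
Grasp (chr15:101223957-101224256, plus strand): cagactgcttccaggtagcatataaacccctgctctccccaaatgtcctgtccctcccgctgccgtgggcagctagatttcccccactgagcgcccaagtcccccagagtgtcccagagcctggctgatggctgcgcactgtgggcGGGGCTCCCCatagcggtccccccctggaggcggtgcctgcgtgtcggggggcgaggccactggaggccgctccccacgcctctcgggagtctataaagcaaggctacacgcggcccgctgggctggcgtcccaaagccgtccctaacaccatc
Zbtb46 (chr2:181424339-181424638, minus strand): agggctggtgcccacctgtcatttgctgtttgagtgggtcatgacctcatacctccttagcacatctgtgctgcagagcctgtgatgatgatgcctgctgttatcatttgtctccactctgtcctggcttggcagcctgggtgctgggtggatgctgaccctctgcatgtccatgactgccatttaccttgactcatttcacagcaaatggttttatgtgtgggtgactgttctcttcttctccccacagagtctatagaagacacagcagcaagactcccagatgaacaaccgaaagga
Il2ra (chr2:11642542-11642841, plus strand): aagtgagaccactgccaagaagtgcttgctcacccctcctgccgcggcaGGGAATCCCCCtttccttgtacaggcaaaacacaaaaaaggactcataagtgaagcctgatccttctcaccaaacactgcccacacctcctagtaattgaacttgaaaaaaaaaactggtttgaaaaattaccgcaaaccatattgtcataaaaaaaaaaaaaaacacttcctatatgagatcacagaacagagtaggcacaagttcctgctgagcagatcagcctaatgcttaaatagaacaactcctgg
The windows of Ccl3 and Zbtb46 hold no match to the kB consensus, and that of Zbtb46 holds 1 TGANTCA match. The Zbtb46 window lies inside the span given for the gene above and not at the 5′ end of that span. Its matches therefore say nothing about sequence at that 5′ end. The Grasp window holds 1 match, starting 104 bases before the transcription start. The Il2ra window holds 2 overlapping matches, the first starting 201 bases before. Grasp encodes a scaffold protein of receptor trafficking, and lay at 94.5 and 101 CPM and then 70.4 and 83.1 CPM in wt against 38.5 and 66.2 CPM and then 2.67 and 9.77 CPM in dbko. Its response difference was -2.72 ± 0.54 (adjusted p = 0.0113), with the call lost without wt 0h replicate 1 (adjusted p = 0.0571), wt 0h replicate 2 (0.0539) or wt 6h replicate 2 (0.0534).

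The response was also split by pathway. Among NF-kB subunits and regulators 7 of 26 had a lower response in dbko and 1 a higher one, with a median of -0.37 against 0.047 over all genes, and 5 of the 7 were called in all 10 left-out fits. Without dbko replicate 1 at both times 11 were lower and 1 higher. Nfkb2, which encodes p100, rose from 326 and 345 CPM to 547 and 533 CPM in wt and fell from 267 and 274 CPM to 153 and 233 CPM in dbko (-1.18 ± 0.22, adjusted p = 0.0062). Traf1, a signalling adaptor, rose from 98.4 and 103 CPM to 242 and 250 CPM in wt and fell from 65.1 and 72.9 CPM to 40.9 and 54.6 CPM in dbko (-1.82 ± 0.19, adjusted p = 0.000257), already lower at 0h. Birc3 and Birc2, the ubiquitin ligases cIAP2 and cIAP1 that hold back the kinase of the non-canonical arm, were not called in wt and fell in dbko. Birc3 fell by 1.25 and Birc2 fell by 0.82 there, with response differences of -1.05 ± 0.19 and -1.09 ± 0.19. Nfkbiz, an atypical IkB protein, had a difference of -1.86 ± 0.34 (adjusted p = 0.0062).

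Known NF-kB targets had a lower response in 13 of 37 and a higher one in none, with a median of -0.51, and 9 of the 13 held in all 10 left-out fits. At 6h itself 24 of the 37 were lower in dbko, where 11.5% of all genes were lower, 15.2% higher and 26.7% called; at 0h 11 were lower and 4 higher, against 11.7% of all genes called. Cd86, a co-stimulatory ligand for T cells, rose from 64.6 and 61.7 CPM to 293 and 319 CPM in wt and lay at 86.1 and 108 CPM and then 91.8 and 182 CPM in dbko (-1.78 ± 0.34, adjusted p = 0.00724). Plek, a substrate of protein kinase C in blood cells, lay at 948 and 937 CPM and then 1077 and 1173 CPM in wt, and fell from 903 and 1244 CPM to 495 and 459 CPM in dbko (-1.43 ± 0.21, adjusted p = 0.00173). The 2 genes stand for both forms of a lower response, a rise called in wt only and a fall called in dbko only.

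**Figure D3:**
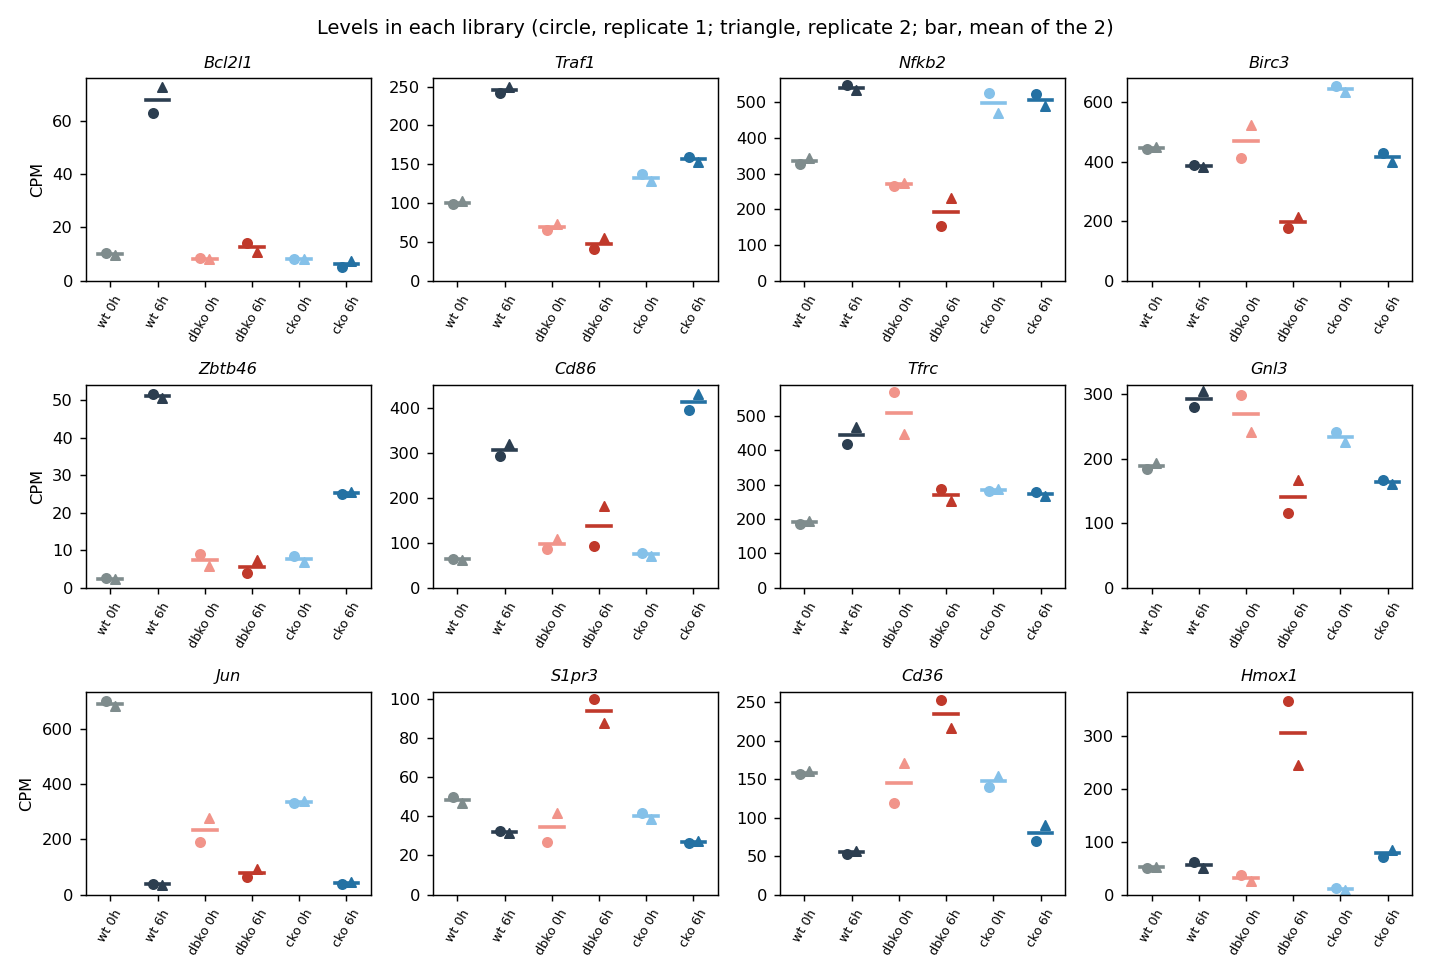
CPM of 12 genes in each library of wt, dbko and cko at 0h and 6h, on linear axes from 0; circles are replicate 1, triangles replicate 2 and bars the mean of the 2. The first 8 genes responded less in dbko than in wt and the last 4 more; after 6h Bcl2l1 reached 62.8 and 72.4 CPM in wt against 14.2 and 10.9 CPM in dbko.

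The lists of survival and death genes are short, and their called shares lay above those of all genes. Of pro-survival genes 21.4% were called, all lower, and of pro-apoptotic genes 26.7%. Over all genes 13.8% were called, 6.90% higher and 6.94% lower. Of 14 pro-survival genes, 3 had a lower response (Bcl2l1, Birc2 and Birc3, or 6 genes without dbko replicate 1, with 1 higher, and a blocked count of 5 lower), and of 15 pro-apoptotic genes 3 had a higher and 1 a lower response. Casp9, the initiator caspase of the mitochondrial pathway, had a response difference of 0.75 ± 0.15 (adjusted p = 0.00874), with 49.6 and 48.7 CPM and then 43.4 and 43.8 CPM in wt, and 41.4 and 44.7 CPM and then 69.7 and 58.6 CPM in dbko. Bcl2l11, the BH3-only death gene Bim, began higher in dbko, at 355 and 430 CPM against 187 and 171 CPM, and the genotypes overlapped after culture, at 299 and 522 CPM against 470 and 475 CPM. Its lower response of -1.33 ± 0.28 (adjusted p = 0.00947; 0.0518 without wt 0h replicate 2) is thus of the 0h only class. Of 14 BAFF and TNF family receptors and ligands, 1 had a higher and 2 a lower response. Tnfrsf13b encodes TACI, a second BAFF receptor; it fell from 232 and 227 CPM to 117 and 115 CPM in wt and rose from 161 and 189 CPM to 263 and 209 CPM in dbko (1.41 ± 0.19, adjusted p = 0.000881).

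Growth genes responded less in dbko. Of 40 ribosome production genes 22 had a lower response and none a higher one, with a median of -0.86. In wt 31 of them rose, where 22.6% of all genes rose and 23.5% fell, and in dbko 3 rose and 6 fell. Dbko replicate 1 weighed on this list: without it at both times 15 were called, with a median of -0.37, and 7 held in all 10 left-out fits. Gnl3, the nucleolar GTPase nucleostemin, rose from 184 and 193 CPM to 280 and 304 CPM in wt and fell from 298 and 241 CPM to 115 and 167 CPM in dbko (-1.56 ± 0.22, adjusted p = 0.00121). Rrp12, a ribosome export factor, had a difference of -1.71 ± 0.28 (adjusted p = 0.00335). Nolc1, a nucleolar chaperone of snoRNPs, had a difference of -1.48 ± 0.26 (adjusted p = 0.00382), between -2.01 and -0.99 in left-out fits. Polr1b, a subunit of RNA polymerase I, rose from 44.0 and 44.4 CPM to 171 and 170 CPM in wt and lay at 65.7 and 42.8 CPM and then 62.1 and 87.8 CPM in dbko (-1.48 ± 0.31, adjusted p = 0.0102, between -2.03 and -0.92 in left-out fits). In dbko, replicate 1 was the higher of the pair before culture and the lower after it for Gnl3 and Polr1b.

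Of 18 amino acid and iron uptake genes 7 had a lower response and none a higher one, with a median of -0.48. Of these 7, 1 differed at 6h only, 3 at both times and 3 at 0h only, and 3 held in all 10 left-out fits. At 0h 7 of the 18 were already higher in dbko, and without dbko replicate 1 the response was lower in 8 and higher in 2. Slc7a1, the arginine transporter CAT-1, rose from 117 and 117 CPM to 362 and 377 CPM in wt and lay at 200 and 141 CPM and then 175 and 222 CPM in dbko (-1.44 ± 0.21, adjusted p = 0.00171). Of 30 glycolysis and hypoxia-response genes 27 rose in wt and 16 in dbko. The median difference of this list was -0.99, or -0.40 without dbko replicate 1, and 7 were called, all lower (blocked count 15), 2 of them in all 10 left-out fits. Ero1l, an oxidase of protein folding that responds to hypoxia, rose from 29.7 and 33.3 CPM to 198 and 217 CPM in wt and lay at 43.7 and 35.4 CPM and then 34.1 and 75.1 CPM in dbko (-2.25 ± 0.39, adjusted p = 0.00501). The other was Pfkm, the muscle phosphofructokinase, with 3.96 and 3.68 CPM and then 4.30 and 4.76 CPM in wt and 36.6 and 21.8 CPM and then 7.04 and 3.52 CPM in dbko; it differed at 0h only, where erythroid markers were also raised. Cholesterol and fatty acid synthesis did not share this pattern: 25 of 30 genes rose in wt and 24 in dbko, and 1 was called (blocked count 2). That gene was Scd1, a desaturase that fell in dbko only (-0.98 ± 0.17, adjusted p = 0.00347).

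Cell cycle lists held few called genes. Of 20 genes of the MYC and G1 list 1 had a higher and 2 a lower response (blocked counts 2 and 4). Cdk6, a G1 kinase, rose from 18.4 and 18.0 CPM to 49.5 and 51.7 CPM in wt and lay at 26.6 and 20.8 CPM and then 22.8 and 21.4 CPM in dbko (-1.57 ± 0.19, adjusted p = 0.000666). The MAX partners Mxi1 and Mxd4, which oppose MYC, went opposite ways, at -1.87 ± 0.37 (adjusted p = 0.00821) and 2.04 ± 0.28 (adjusted p = 0.00114). Of 35 S phase genes 1 was called, or 4 without dbko replicate 1 and 5 with the block (Mcm2, a helicase subunit, -0.96, adjusted p = 0.0107). Mcm2 lost its call without wt 0h replicate 2 (adjusted p = 0.0527) or wt 6h replicate 2 (0.0598), and its difference ranged from -1.29 to -0.63. Of 25 G2 and mitosis genes edgeR and DESeq2 each called 0 in the response difference, and 0 had an unadjusted p under 0.05, while the blocked count was 5 higher. In dbko against wt 24 of these 25 were called higher at 6h and 1 at 0h. The median difference was already 1.58 at 0h, beside 2.22 at 6h, so the few calls at 0h do not mean equal levels. Of the 35 S phase genes 16 were called higher in dbko at 0h and 0 lower, with a median of 1.05. At 6h 13 of them were higher and 1 lower, with a median of 0.84. Over all genes 7.10% were higher at 0h and 15.2% at 6h.

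**Figure D4:**
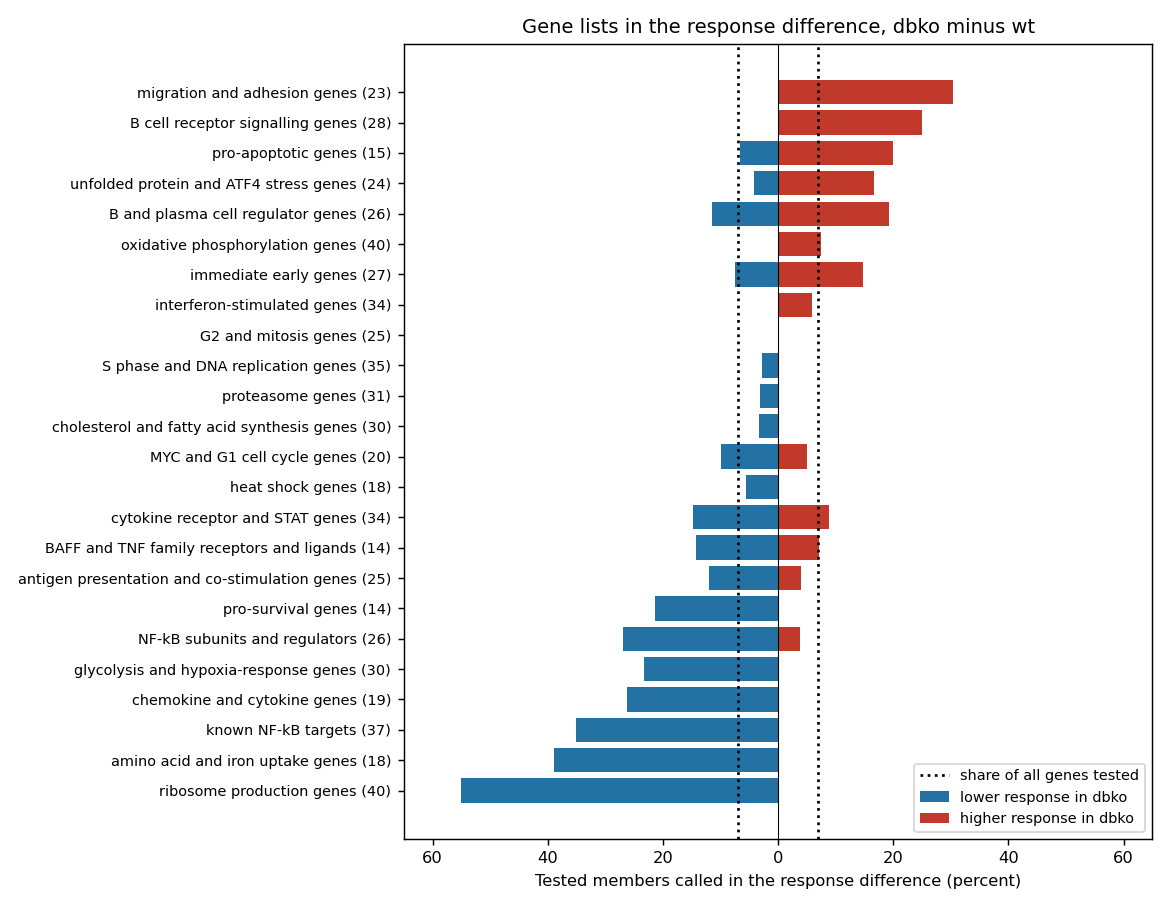
Share of the tested members of each pathway list (number in parentheses) called in the response difference, in percent; bars to the right are higher responses in dbko, bars to the left lower ones, and dotted lines mark the share of all genes, 6.90% higher and 6.94% lower. Ribosome production genes reach 55% lower and migration genes 30.4% higher.

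Higher responses in dbko were found among surface and signalling genes that fell in wt. Of 23 migration and adhesion genes 7 had a higher response and none a lower one, with a median of 0.68, or 0.34 without dbko replicate 1. Itgb7, an integrin chain for homing to the gut, fell from 185 and 193 CPM to 22.3 and 26.8 CPM in wt and from 157 and 180 CPM to 68.3 and 45.0 CPM in dbko (1.37 ± 0.24, adjusted p = 0.00387). Of 28 genes of B cell receptor signalling 7 had a higher response and none a lower one, with a median of 0.35, but without dbko replicate 1 it was 5 higher and 4 lower, and the blocked counts were 10 and 2. Plcg2, the phospholipase downstream of that receptor, fell from 544 and 511 CPM to 287 and 284 CPM in wt and stood at 451 and 538 CPM and then 511 and 469 CPM in dbko (0.87 ± 0.17, adjusted p = 0.00612). The other 6 of these lost the call in at least 1 left-out fit. Of 19 mature B cell markers 4 had a higher response and 1 a lower one (blocked counts 8 and 1). Cd38, an ectoenzyme of resting mouse B cells, fell from 266 and 274 CPM to 105 and 109 CPM in wt and lay at 165 and 224 CPM and then 236 and 209 CPM in dbko (1.53 ± 0.22, adjusted p = 0.00145). Fcer2a, the follicular marker CD23, went against this: it fell from 1192 and 1251 CPM to 552 and 515 CPM in wt and from 695 and 1088 CPM to 167 and 168 CPM in dbko (-1.22 ± 0.23, adjusted p = 0.00641).

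Marginal zone B cell markers had a higher response in 6 of 12 and a lower one in none, with a median of 1.27, which was 1.29 without dbko replicate 1. Their summed level was 2317 and 2314 CPM, then 1613 and 1678 CPM in wt, 1467 and 2100 CPM, then 2872 and 3346 CPM in dbko, and 2437 and 2484 CPM, then 2429 and 2913 CPM in cko. Plac8, a small cysteine-rich protein, made up most of the sum after culture in dbko and cko, going from 670 and 533 CPM to 1669 and 1784 CPM in dbko, from 480 and 463 CPM to 1393 and 1804 CPM in cko and from 478 and 463 CPM to 671 and 724 CPM in wt. Without Plac8 the other 11 summed to 1838 and 1850 CPM, then 942 and 954 CPM in wt, 797 and 1566 CPM, then 1203 and 1562 CPM in dbko, and 1957 and 2021 CPM, then 1036 and 1109 CPM in cko. On that sum dbko replicate 2 did not go up, and dbko still lay above wt and cko after culture. S1pr3, a sphingosine phosphate receptor that helps hold cells in the marginal zone, lay at 49.9 and 46.8 CPM and then 32.4 and 31.4 CPM in wt, and at 27.1 and 41.8 CPM and then 100 and 87.9 CPM in dbko (2.05 ± 0.23, adjusted p = 0.000388). Cd36, a scavenger receptor, fell from 156 and 161 CPM to 52.4 and 57.0 CPM in wt and rose from 119 and 171 CPM to 253 and 216 CPM in dbko (2.23 ± 0.24, adjusted p = 0.000371). Fcrl5, an Fc receptor-like protein, had a difference of 1.52 ± 0.28 (adjusted p = 0.00502). At 0h 1 of the 12 was called different, Myof, which was lower in dbko. Cd9, Myof and Plac8 were the other 3 called in the response difference, and each lost the call in at least 1 left-out fit, Myof without wt 6h replicate 2 (adjusted p = 0.0571). Both dbko libraries lay above both wt libraries at 6h for S1pr3, Cd36 and Fcrl5. Cr2, of the same list, lay below wt in both dbko libraries at both times and was called at neither. It measured 745 and 752 CPM, then 247 and 237 CPM in wt, and 157 and 574 CPM, then 121 and 144 CPM in dbko.

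Of the 67 genes that differed at both times and responded more in dbko, 13 had a 0h difference above 0, and the median at 0h was -0.57. The choice by response difference favours this side too. Rgs3, a brake on G protein signalling, fell by 2.07 in wt with no call in dbko, and Cbx8, a Polycomb subunit, fell by 1.85 in wt with no call in dbko. Their response differences were 2.45 ± 0.36 (adjusted p = 0.0017) and 2.40 ± 0.34 (adjusted p = 0.0012).

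Hmox1 and Osgin1, members of none of the lists, were among the largest differences with a higher response in dbko than in wt. Hmox1, heme oxygenase, lay at 49.8 and 52.6 CPM and then 62.3 and 50.1 CPM in wt, and rose from 37.8 and 25.9 CPM to 365 and 244 CPM in dbko (3.12 ± 0.31, adjusted p = 0.000257). Osgin1, an oxidative stress gene, fell from 15.9 and 17.0 CPM to 3.94 and 3.06 CPM in wt and went from 7.61 and 10.3 CPM to 11.3 and 22.4 CPM in dbko (3.15 ± 0.41, adjusted p = 0.000857). In cko Hmox1 also went up, from 12.1 and 9.15 CPM to 71 and 85 CPM. Neither gene was called between the dbko and cko responses, at 0.38 ± 0.32 for Hmox1 (adjusted p = 0.717) and 1.23 ± 0.40 for Osgin1 (adjusted p = 0.207). Of 24 unfolded protein and ATF4 genes 4 had a higher and 1 a lower response, the higher ones including Sesn2, a stress-induced inhibitor of mTORC1 (0.89 ± 0.17, adjusted p = 0.00546). Macrophages also express Hmox1. Of 17 macrophage and monocyte markers tested 10 had a higher response, with a median of 3.04 (2.46 without dbko replicate 1), and none of the 10 held in all 10 left-out fits. Lyz2, lysozyme of myeloid cells, went from 6.04 and 6.97 CPM to 1.74 and 0.510 CPM in wt and from 20.1 and 12.1 CPM to 47.7 and 12.9 CPM in dbko (adjusted p = 0.0303, and 0.081, 0.0973 and 0.129 on leaving out wt 0h replicate 1, wt 0h replicate 2 or wt 6h replicate 2). The macrophage markers summed highest in dbko replicate 1, and the difference for Hmox1 was 3.09 without that replicate. This does not take the markers away, as they summed to 386 CPM in dbko 6h replicate 2 against 309 and 300 CPM in wt 6h. Apoe gave 170 and 171 CPM of these wt sums and 18.3 CPM of that dbko sum. The sums therefore understate the gap in the other markers, of which 16 of the 17 tested were called higher in dbko at 6h, with Apoe lower. At 6h Mpeg1 measured 91.2 and 82.4 CPM in wt and 272 and 246 CPM in dbko, and Csf1r 2.20 and 1.19 CPM in wt and 32.8 and 7.58 CPM in dbko. The part of these markers in the differences of Hmox1 and Osgin1 was not tested.

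Immediate early genes fell in both genotypes, 23 of 27 in wt and 24 in dbko, and 4 had a higher and 2 a lower response, or 9 and 4 without dbko replicate 1 and blocked counts of 8 and 4. Jun, a subunit of AP-1, fell from 702 and 683 CPM to 38.1 and 35.3 CPM in wt and from 190 and 278 CPM to 65 and 91.8 CPM in dbko (2.66 ± 0.27, adjusted p = 0.000257). It was lower in dbko at 0h and higher at 6h, with no overlap at either time. Klf2, a transcription factor of resting lymphocytes, fell from 829 and 869 CPM to 77.3 and 99 CPM in wt and from 321 and 381 CPM to 79.0 and 96.9 CPM in dbko (1.27 ± 0.25, adjusted p = 0.00729). The genotypes met at 6h, so the difference of Klf2 lay at 0h. Nr4a3, an orphan nuclear receptor, went the other way, at -1.76 ± 0.34 (adjusted p = 0.00874), and in dbko it fell by 1.48 with no call in wt.

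Among genes that differed at 0h only, those with a lower response started higher in dbko, which follows largely from how the class was chosen. A lower response with a call at 0h and none at 6h leaves little room for another sign. All 162 had a 0h difference above 0, with a median of 1.00, and a median 6h difference of -0.15. Ctse, the protease cathepsin E, lay at 21.7 and 22.8 CPM and then 22.0 and 25.4 CPM in wt, and fell from 289 and 159 CPM to 33.7 and 31.5 CPM in dbko (-2.88 ± 0.31, adjusted p = 0.000388). Ankrd33b rose in both, from 14.4 and 16.0 CPM to 170 and 179 CPM in wt and from 86.2 and 58.1 CPM to 104 and 173 CPM in dbko (-2.58 ± 0.31, adjusted p = 0.00073). Ifitm2, an antiviral membrane protein, rose from 0.834 and 0.968 CPM to 10.6 and 10.6 CPM in wt and held at 9.30 and 6.32 CPM and then 9.71 and 9.15 CPM in dbko (-3.27 ± 0.36, adjusted p = 0.000371). C1qtnf12, a secreted C1q and TNF related protein, measured 1.35 and 2.23 CPM, then 5.13 and 3.06 CPM in wt and 50.3 and 26.2 CPM, then 4.53 and 5.55 CPM in dbko (-4.10 ± 0.51, adjusted p = 0.000709). Ctse, Ankrd33b, Ifitm2, C1qtnf12 and Pfkm were all higher in dbko replicate 1 than in replicate 2 at 0h, in the order of the erythroid markers, whose part in these differences was not tested. With a higher response in this class, Emid1 fell from 35.6 and 33.5 CPM to 4.85 and 3.74 CPM in wt and from 7.04 and 11.5 CPM to 5.02 and 4.53 CPM in dbko (2.05 ± 0.35, adjusted p = 0.00337).

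The remaining lists held fewer called genes or split in direction, apart from chemokine and cytokine genes. Interferon-stimulated genes had 2 higher of 34, oxidative phosphorylation genes 3 higher of 40, proteasome genes 1 lower of 31 and heat shock genes 1 lower of 18 (blocked counts 3 lower for the proteasome, and 1 higher and 2 lower for heat shock). Antigen presentation and co-stimulation genes had 1 higher and 3 lower of 25, cytokine receptor and STAT genes 3 higher and 5 lower of 34, and B and plasma cell regulators 5 higher and 3 lower of 26. Without dbko replicate 1 these were 1 and 6, 6 and 11, and 8 and 5, and the blocked counts for cytokine receptor and STAT genes were 5 and 12. Chemokine and cytokine genes had 5 lower and 0 higher of 19, 4 of them in all 10 left-out fits. Among markers of other cells, 1 of 12 B-1 and plasma cell genes was lower (Slamf7, -1.62 ± 0.23), with 6 others higher without dbko replicate 1 and 3 with the block, 2 of 8 dendritic cell genes were lower, 1 of 7 T and NK genes was higher (2 with the block), and edgeR and DESeq2 called 0 of 4 granulocyte and 0 of 6 platelet genes (0 and 1 at an unadjusted p under 0.05, and 0 and 1 with the block).

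The dbko response was also tested against the response of cko, which by its label lacks c-Rel only. These genotypes also differed in erythroid markers at 0h, which summed to 287 and 295 CPM in cko and 2417 and 1267 CPM in dbko. The part of these and other cell type markers in the calls was not tested, so the calls are not assigned to the loss of RelB. Of 12630 genes 118 were called (0.934%), 74 higher (0.586%) and 44 lower (0.348%) in dbko, and 11 of them in all 10 fits with a library, or a dbko replicate at both times, left out. The comparisons with wt and with cko share the dbko libraries, so their calls are not independent. With 1 library left out the count lay between 12 (cko 0h replicate 2) and 682 (dbko 6h replicate 2), and the blocked count was 329. S1pr3 lay at 41.5 and 38.6 CPM and then 26.3 and 27.6 CPM in cko, near wt, and its dbko response was higher than the cko response by 2.02 ± 0.23 (adjusted p = 0.00334). Ctse, at 32.7 and 38.4 CPM and then 30.6 and 31.9 CPM in cko, had a difference of -2.60 ± 0.31 (adjusted p = 0.00416). Zbtb46 rose to 25.1 and 25.6 CPM in cko at 6h, between wt and dbko, and Cd86 to 396 and 432 CPM, above wt; the differences of -2.13 ± 0.36 (adjusted p = 0.0177) and -1.99 ± 0.34 (adjusted p = 0.0204) lost their calls when any 1 of the 4 cko libraries was left out (at most adjusted p = 0.124 and 0.136), and that of Zbtb46 also without dbko 0h replicate 1 (-1.75, adjusted p = 0.0699). Without dbko replicate 1 at both times the difference of Zbtb46 was -1.37 (adjusted p = 0.0125).

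For Bcl2l1 cko gave no rise: it lay at 8.15 and 8.25 CPM and then 5.28 and 7.36 CPM. The dbko response of Bcl2l1 was 0.96 ± 0.26 above that of cko, which did not pass the test (adjusted p = 0.13). Of 18 heat shock genes 7 had a higher response in dbko than in cko, with a median of 1.08, and 0 higher and 1 lower in dbko than in wt. Hsph1, a heat shock chaperone, lay at 3257 and 3232 CPM in cko at 0h, against 1054 and 1149 CPM in wt and 964 and 1108 CPM in dbko. It fell to 97.1 and 98.3 CPM in cko at 6h, and its response was higher in dbko than in cko by 1.90 ± 0.22 (adjusted p = 0.00362). For Hsph1, cko stood apart from the other genotypes before culture, and cko and dbko overlapped after it.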

How the data were processed

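Poly-A RNA from 14 libraries was measured, 2 per group, of which the 8 of wt and dbko at 0h and 6h enter the response difference. The deposited files hold raw read counts per Ensembl gene ID as the authors made them. Bases were called with CASAVA 1.8.2 per the submitters' processing notes, and libraries were made with the Illumina TruSeq RNA LT kit per the labels' protocols. For the aligner, counter, genome build, annotation and strand setting, the sources used here give nothing, so reads of antisense and overlapping genes, and of near-identical copies, cannot be told apart. Tallies outside genes were left out: reads without a feature were 5.57 to 11.46%, not uniquely aligned 38.77 to 49.85% and ambiguous 0.41 to 0.49% of each library's total. Symbols and coordinates are from GENCODE M21 (GRCm38), which held 37693 of 39179 IDs and 99.56% of counts.

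Counts were tested with edgeR 4.0.16 (R 4.3.3, limma 3.58.1): TMM scaling, filterByExpr by group, 1 mean per group over all 14 libraries, robust quasi-likelihood fits with 7 residual degrees of freedom, and two-sided tests with Benjamini-Hochberg adjustment over 12630 genes, called under 0.05. The standard error is the absolute log2 difference divided by the square root of the F statistic. CPM used the TMM-scaled library size. Separate animals or cultures behind replicate libraries are not stated in the labels, so p-values measure only the spread between libraries, which may be technical. Replicate numbers 1 and 2 also mark the sequencing lane. Deviations of same-numbered libraries at 0h and 6h correlated at 0.13 in wt, 0.46 in dbko and 0.23 in cko, all 3 above 0.1. Over all 6 pairs of the 4 groups of wt and dbko 3 were above 0.1. Across genotypes, wt correlated with dbko at -0.0 at 0h and 0.24 at 6h, and with cko at -0.08 and 0.38. The numbers were taken to pair libraries within a genotype and not across genotypes, which these values do not settle. The main test has no block, and counts with a block within genotype are given beside it.

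Named genes were Rel and Relb, the 6 largest differences per class and direction (average log2 CPM 3 or more), and up to 4 called members per list; 24 pathway and 9 cell type lists were used. Members, lists and rules were chosen with earlier results of these data known. Where a gene outside this rule is named, it was chosen after its values were seen. Promoter windows are RefSeq, GRCm38.p6, and 9422 of the 12630 tested genes matched. Alternatives were DESeq2 1.42.0 and its size factors, no filter, replicate blocks, a fit of the compared groups alone, other 0h rules and left-out libraries. Scripts ran in Python 3.11.15 with NumPy 2.4.6, pandas 2.3.3 and SciPy 1.17.1, and the fit was tested on simulated data.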

Additional observations from a re-analysis of the deposited data

Results flagged for a closer look

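The 6h response differed between dbko and wt by the test of the difference itself for 1749 of 12630 genes, 872 higher and 877 lower (edgeR, adjusted p under 0.05). Of these, 453 were called in each of the 10 fits with 1 library, or 1 dbko replicate at both times, left out. By the same test the dbko response differed from that of cko for 118 genes, 11 of them in each of the 10 corresponding fits, and 102 of the 118 were among the 1749, in comparisons that share the dbko libraries.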

How the results depend on the processing

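None of the 123 called genes named here reversed under the alternatives run, and 63 of them were called in all 8 fits that left out 1 library. The 2 dbko replicates lie far apart, and 2 libraries per group limit every count here. Fitting only the groups compared gave 650 genes for the response difference, 416 for dbko against wt at 0h, 1075 at 6h, 1323 for the dbko response, 1 for dbko minus cko and 47 in the pathway lists, with classes of 466 (6h only), 50 (both times), 83 (0h only) and 51 (neither). Without a filter on low counts there were 2361 at 0h, 576 for dbko minus cko, 427 in the class of both times and 171 in the pathway lists. DESeq2 called 255 for dbko minus cko. An unadjusted p at 0h gave 427 at both times, 474 at 0h only and 24 at neither.

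A replicate block gave 1792 genes for the response difference (1593 at 0h, 3505 at 6h, 126 for dbko minus cko), and no named gene lost its call, as under the block within genotype. Of the named genes, 53 lost the call when only the groups compared were fitted, 42 to 53 without 1 wt library, and 7 to 15 without 1 dbko library. A replicate block within each genotype gave 2685, 2716 at 0h, 329 for dbko minus cko, 509 at both times, 536 at 0h only and 171 in the pathway lists. Numbers also mark the lane, so lane and pairing cannot be told apart.

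With 1 library left out, the counts ranged from 595 to 2634 for the response difference, 445 to 3090 at 0h, 1296 to 4210 at 6h, 12 to 682 for dbko minus cko and 49 to 187 in the pathway lists. The classes ranged from 329 to 1615 (6h only), 24 to 528 (both times), 62 to 789 (0h only) and 47 to 214 (neither). Without dbko replicate 1 at both times there were 288 for dbko minus cko and 277 in the class of both times. Without dbko replicate 2 at both times there were 4054 for the response difference, 4717 at 0h, 5645 at 6h, 2080 for dbko minus cko, 1619 at 6h only, 1280 at both times, 1005 at 0h only and 285 in the pathway lists. The cause of these shifts was not tested; the fits of the compared groups alone have fewer libraries.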
